A study of Coprinopsis cinerea AmutBmut pab1-1 with 201 samples.

Results

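Aerial mycelium, the hyphae that grow up into the air above a culture, was compared with attached mycelium after 156 h of growth in darkness in the inky cap mushroom Coprinopsis cinerea. The comparison held 6 libraries of the 201 in the study, 3 labelled as aerial and 3 as attached mycelium, and the labels place them at the last moment before a light pulse. Every library in the study came from strain AmutBmut pab1-1, which carries mutations in both mating type factors and the pab1-1 allele. Aerial and attached mycelium therefore shared their alleles, and the labels name no treatment other than growth in darkness, nor how the compartments were taken apart. The study followed 67 groups of 3 libraries from spores through mycelium and light induction to young fruiting bodies, with starvation and stress besides. Another 42 libraries of aerial and attached mycelium, from 7 sampling times during and after 2 h of light, were used to ask whether differences seen in darkness were seen again. It is not labelled whether the 3 libraries of a group were separate cultures. The p-values then measure only the spread between libraries of the same group, which may be technical. That spread was estimated over all 48 aerial and attached libraries together, not over the 6 dark libraries alone.

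A fungal colony takes up sugars, nitrogen and minerals from its medium through hyphae that lie on or in it, while aerial hyphae stand in air and are supplied from below through the connected cytoplasm. Aerial hyphae of mushroom-forming fungi are known for a water-repellent surface and for carrying asexual spores (oidia) and hyphal aggregates. In Coprinopsis cinerea, light reaching a colony that has grown in the dark starts the path to fruiting, whose first visible structures are hyphal knots.

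The counts named genes only by identifier, and 0 of the 13617 identifiers matched the 13657 genes of the reference table, which describes another strain. No product or function is therefore given for any gene, and no known marker could be used to check the labels of the 2 compartments. Genes are described by their position in the deposited CopciAB V2 annotation, by their levels, and by response sets, which are genes that marked another condition in libraries other than these 6. The 6 totals lay between 10434980 and 12500712 counts, and the 42 later libraries between 1034420 (attached mycelium 12 h after light, library 1) and 26100989, with the second lowest at 3402927. Library 3 stood apart in both compartments. Across genes, attached libraries 1 and 2 correlated at r = 0.984 on the log2 CPM scale, and library 3 with them at 0.963, while aerial libraries 1 and 2 correlated at 0.987 and library 3 with them at 0.977 and 0.981. Genes are not independent replicates, and these values only describe the libraries. Calls of named genes and set counts that changed most without library 3 are given with and without it.

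Aerial and attached mycelium differed in 2144 of 11559 genes tested, or 18.5%. Of these, 920 genes were higher in aerial mycelium (7.96% of those tested) and 1224 were lower (10.6%), at an adjusted p under 0.05 in edgeR's quasi-likelihood test with Benjamini-Hochberg adjustment and a fold of 2 or more. The lower genes moved further. Their median log2 difference, aerial minus attached, was −2.15, against 1.56 for the higher genes and 0.00 for all genes tested. A difference of 16-fold or more (log2 of 4 or more) was found for 207 lower and 27 higher genes, and one of 32-fold or more for 115 lower and 8 higher genes. The CPM of the 3 aerial libraries did not overlap those of the 3 attached libraries for 904 of the 920 higher genes and 1155 of the 1224 lower genes. Among all genes tested, called or not, 25.8% were free of overlap and higher and 24.9% free of overlap and lower.

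The genes called made up a large share of each library. Those higher in aerial mycelium took 15.4, 15.2 and 14.02% of the counts of the 3 aerial libraries and 4.45, 4.46 and 3.72% of the attached ones. Those lower in aerial mycelium took 4.48, 4.15 and 5.10% of the aerial counts and 19.1, 18.1 and 20.5% of the attached counts. The genes that chose these shares were called on the same libraries, so the shares describe how much of the RNA was involved and test nothing. In bulk RNA, fewer hyphae that express a gene and less of its RNA in each hypha cannot be told apart.

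**Figure D1:**
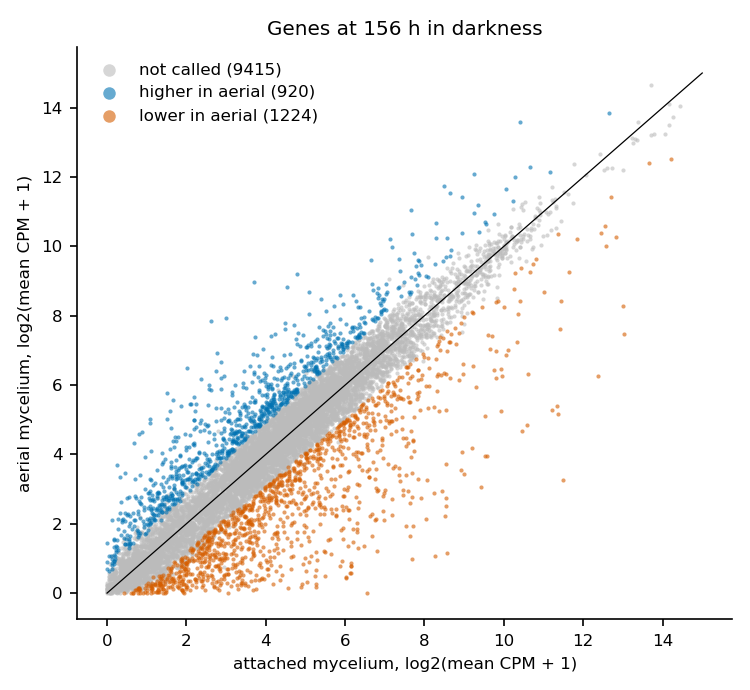
Mean level of each of the 11559 genes tested in attached (x axis) and aerial (y axis) mycelium after 156 h in darkness, each as log2(mean CPM + 1) over 3 libraries. Blue points are the 920 genes called higher and orange points the 1224 called lower in aerial mycelium, grey points were not called, and the line marks equal levels. The orange cloud reaches further from the line than the blue one, and many of its genes lie near 0 in aerial mycelium.

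The largest differences among genes higher in aerial mycelium lay between 4.88 and 5.90 on the log2 scale. CopciAB_546727.T0 (scaffold 5, bases 3420377 to 3421568, plus strand, 2 exons) was at 10.5, 12.6 and 12.3 CPM in the aerial libraries and 0.0974, 0.260 and 0.191 CPM in the attached ones. The 2 groups lay far apart, with a log2 difference of 5.90 ± 0.90 (SE, edgeR adjusted p = 3.99e-06). Its mean was higher in only 1 other group of the study, mycelium grown for 36 h in the dark. CopciAB_371700.T0 (scaffold 2, bases 3727685 to 3730217, plus strand, 11 exons) reached 292, 286 and 105 CPM in aerial against 6.43, 5.02 and 3.92 CPM in attached mycelium, a log2 difference of 5.47 ± 0.66 (SE, edgeR adjusted p = 6.73e-08). Aerial library 3 held the lowest of its aerial values and still lay above every attached library, and of the 67 groups dark aerial mycelium had the highest mean. CopciAB_450946.T0 (scaffold 7, bases 782931 to 783548, plus strand, 4 exons) stood at 71.7, 125 and 70.7 CPM in aerial and 3.21, 3.63 and 2.20 CPM in attached mycelium (4.88 ± 0.82 log2, SE, edgeR adjusted p = 1.83e-05). In this gene too dark aerial mycelium ranked first of the 67 groups.

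A pair of head-to-head neighbours on scaffold 1 was among the 8 genes with the largest increase. CopciAB_501653.T0 (scaffold 1, bases 3888625 to 3891303, minus strand, 8 exons) was at 273, 336 and 116 CPM in aerial and 8.08, 8.997 and 3.83 CPM in attached mycelium (5.11 ± 0.40 log2, SE, edgeR adjusted p = 1.11e-12). CopciAB_442792.T0 (scaffold 1, bases 3892685 to 3895007, plus strand, 12 exons), which starts 1381 bases away in the opposite direction, was at 637, 645 and 219 CPM in aerial and 13.05, 15.7 and 7.18 CPM in attached mycelium (5.38 ± 0.58 log2, SE, edgeR adjusted p = 6.26e-09). Both had their highest mean of all 67 groups in dark aerial mycelium, and in both, library 3 was the lowest of its compartment. The other 3 of the 8 genes were CopciAB_476986.T0, CopciAB_516649.T0 and CopciAB_512718.T0, with aerial means of 9.19 ± 2.79, 19.3 ± 3.12 and 23.05 ± 2.12 CPM (SD, n = 3) and attached means of 0.252 ± 0.207, 0.593 ± 0.349 and 0.756 ± 0.286 CPM.

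Some of the most abundant transcripts of aerial mycelium were also higher there. CopciAB_468111.T0 (scaffold 10, bases 1972689 to 1973403, plus strand, 3 exons) had the highest mean over the 6 libraries of all genes that passed the filters for named genes. It was at 12535, 14494 and 9827 CPM in the aerial and 1600.3, 1569.9 and 902 CPM in the attached libraries, a log2 difference of 3.18 ± 0.43 (SE, edgeR adjusted p = 3.41e-07), and dark aerial mycelium again ranked first of 67 groups. CopciAB_501042.T0 (scaffold 8, bases 1613830 to 1615771, minus strand, 10 exons) was at 4549, 5078 and 3537 CPM in aerial and 730.1, 712 and 378 CPM in attached mycelium (2.85 ± 0.43 log2, SE, edgeR adjusted p = 3.11e-06). CopciAB_377293.T0 rose less, from 1627 ± 139 CPM in attached to 5033 ± 162 CPM in aerial mycelium (SD, n = 3). CopciAB_357193.T0, at 2277 ± 161 and 4556 ± 579 CPM, sat on the 2-fold threshold with a log2 difference of 1.00 ± 0.17 (SE). It fell to 0.86, 0.99 and 0.92 without aerial library 3, attached library 2 or attached library 3, and was then no longer called.

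Not every abundant transcript differed between the compartments. CopciAB_368245.T0 (scaffold 11, bases 1269920 to 1271261, minus strand, 4 exons) was at 4798, 4927 and 4889 CPM in aerial and 6285, 5826 and 6477 CPM in attached mycelium, and its log2 difference of −0.35 ± 0.19 was not called (SE, edgeR adjusted p = 0.176), although the libraries did not overlap. CopciAB_54535.T0 (scaffold 9, bases 421953 to 423849, plus strand, 10 exons) was at 5173, 5687 and 3271 CPM in aerial and 5956, 6774 and 4978 CPM in attached mycelium, with overlapping libraries and a log2 difference of −0.33 ± 0.24 (SE, edgeR adjusted p = 0.33).

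Among genes lower in aerial mycelium, 2 of the most extreme had no count at all in the 3 aerial libraries. CopciAB_448984.T0 (scaffold 7, bases 603634 to 604358, plus strand, 1 exon) was at 151, 114 and 11.9 CPM in the attached libraries, so it was at least 1083-fold lower in aerial mycelium with 3 counts over the group as the floor (edgeR adjusted p = 7.84e-09). With a fit of the 6 libraries alone the adjusted p was 0.0507. CopciAB_1001455.T0 (scaffold 6, bases 2515272 to 2515767, plus strand, 3 exons) was at 12.4, 7.96 and 1.34 CPM in attached mycelium and at least 84.8-fold lower (edgeR adjusted p = 6.64e-06). In both genes attached library 3 lay far below the other attached libraries, and in both the highest mean of the study was that of sclerotia, the resting bodies of the fungus. Over all genes tested, 7 had no aerial count and at least 1 CPM in attached mycelium, and 1 had the reverse.

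CopciAB_438797.T0 (scaffold 11, bases 1722204 to 1723246, minus strand, 4 exons) combined a large difference with a high level. It was at 4.51, 10.002 and 11.3 CPM in aerial and 2503, 2159.8 and 3966 CPM in attached mycelium, a log2 difference of −8.38 ± 0.80 (SE, edgeR adjusted p = 9.16e-10). Its highest mean in the study was in ungerminated basidiospores, the sexual spores. CopciAB_545612.T0 (scaffold 1, bases 3219362 to 3220476, plus strand, 5 exons) and CopciAB_482122.T0 (scaffold 1, bases 3223222 to 3224525, plus strand, 9 exons) are neighbours. The first was at 1.63, 1.08 and 0.994 CPM in aerial and 682, 340.3 and 107 CPM in attached mycelium (−8.25 ± 1.14 log2, SE, edgeR adjusted p = 8.89e-07). The second was at 0, 0.250 and 0.166 CPM in aerial and 63.7, 36.8 and 12.2 CPM in attached mycelium (−7.90 ± 1.195 log2, SE, edgeR adjusted p = 4.98e-06). In both, attached library 1 was highest and library 3 lowest, and every attached value lay above every aerial one. CopciAB_492531.T0 fell from 307 ± 53.7 to 1.08 ± 0.504 CPM, CopciAB_450219.T0 from 206 ± 135 to 0.963 ± 0.421 CPM and CopciAB_468099.T0 from 28.7 ± 6.22 to 0.139 ± 0.174 CPM (attached to aerial, SD, n = 3).

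The most abundant transcripts that were lower in aerial mycelium took a visible part of the attached libraries. CopciAB_450739.T0 (scaffold 10, bases 925250 to 926008, plus strand, 2 exons) was at 6818, 6532 and 11675 CPM in attached and 194, 222 and 111 CPM in aerial mycelium, a log2 difference of −5.57 ± 0.65 (SE, edgeR adjusted p = 3.18e-08). CopciAB_178286.T0 (scaffold 12, bases 1857604 to 1859309, minus strand, 3 exons) was at 10557, 8469 and 5430.1 CPM in attached and 369.7, 262 and 291 CPM in aerial mycelium (−4.73 ± 0.77 log2, SE, edgeR adjusted p = 1.23e-05). CopciAB_445635.T0 and CopciAB_488795.T0 differed less, with log2 differences of −2.55 ± 0.33 and −1.97 ± 0.38 (SE), at attached means of 7238 ± 1034 and 6012 ± 359 CPM (SD, n = 3). For all 4 the compartments did not overlap.

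**Figure D2:**
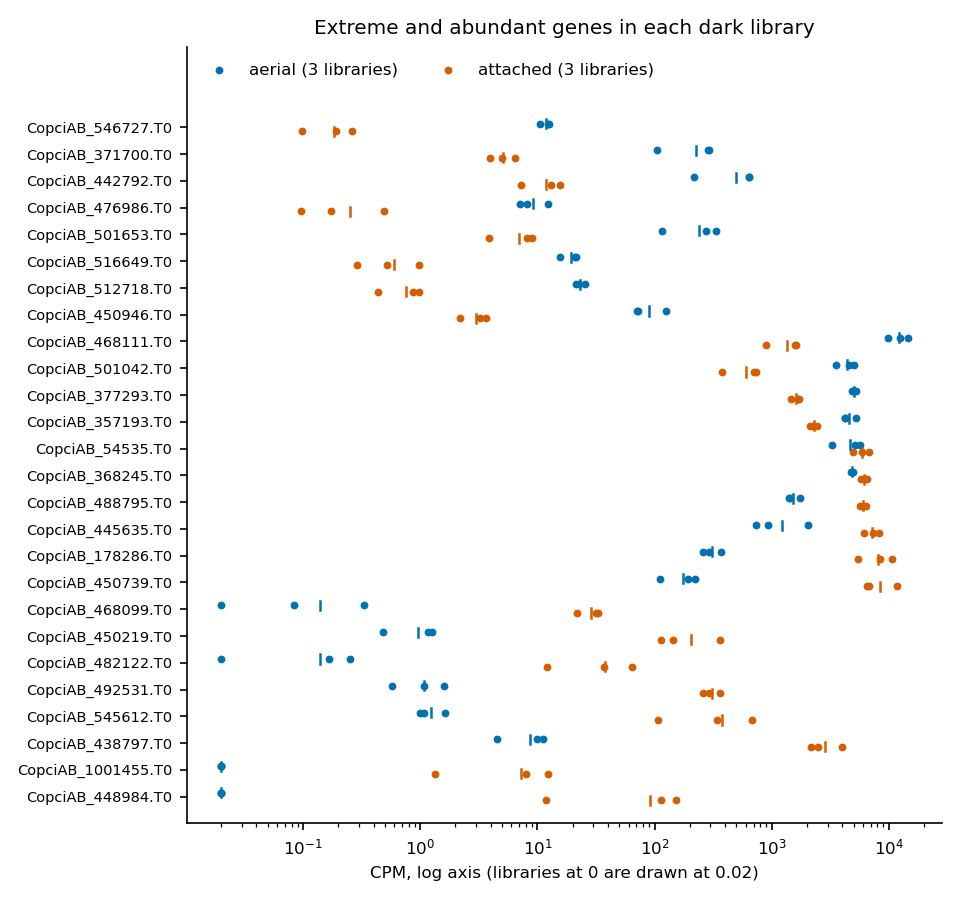
CPM on a log axis in each of the 3 aerial (blue) and 3 attached (orange) libraries for the 8 genes with the largest difference in each direction, the 4 most abundant genes called in each direction and the 5 most abundant over the 6 libraries, some of them the same genes. Ticks mark group means, and libraries at 0 are drawn at 0.02. Only the points of CopciAB_54535.T0 overlap between the compartments.

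The genes that marked starvation or an older colony most strongly were mostly lower in aerial mycelium. Each response set held at most 100 genes, at least 4-fold higher in 1 group than in another and at 5 CPM or more, and described below is how many members were called in darkness, beside the 7.96% higher and 10.6% lower among all genes tested. The starvation set, higher after 24 h on water agar than in fed mycelium, had 58 of 98 tested members lower in aerial mycelium and 8 higher, at a median log2 difference of −2.92. The ageing set, higher in mycelium grown for 132 h than for 12 h in darkness, had 70 of 100 lower and 11 higher, at −2.97. The starvation and ageing sets were the 100 largest changes of 579 and 240 qualifying genes, and shared 21 genes. CopciAB_545612.T0, described above, led both sets. CopciAB_546855.T0 of the starvation set was at 115, 68.3 and 8.995 CPM in attached and 0.288, 0.500 and 0.249 CPM in aerial mycelium (−7.47 ± 0.84 log2, SE, edgeR adjusted p = 1.54e-08).

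Attached library 3 moved with the starvation set. Its members took 0.68, 0.47 and 0.25% of the scaled counts of the 3 attached libraries and 0.19, 0.18 and 0.30% of the aerial ones. The summed share thus overlapped between compartments. Here and below, the share of a set is the summed CPM of its members, on library sizes scaled by TMM factors. It is not a share of raw counts. Without library 3 of both compartments, 54 starvation members were lower and 7 higher, at a median of −3.41, and 71 ageing members were lower and 10 higher, at −3.17. The part of library 3 in the spread of single starvation genes was not tested.

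The genes that fell most strongly in starvation, 100 of 195 that qualified, were also mostly lower in aerial mycelium. The set of genes lost after 24 h on water agar had 77 of 99 tested members lower and 0 higher, at a median of −1.93, so members of both opposite sets were lower in aerial mycelium. Its members took 0.22, 0.23 and 0.39% of aerial and 1.53, 1.48 and 1.76% of attached scaled counts, with no overlap. Here CopciAB_446928.T0 (scaffold 10, bases 1740533 to 1742748, plus strand, 15 exons) was at 138, 163 and 296 CPM in attached and 1.15, 4.25 and 0.911 CPM in aerial mycelium (−6.54 ± 1.02 log2, SE, edgeR adjusted p = 7.23e-06). CopciAB_377714.T0 (scaffold 6, bases 2199756 to 2200856, minus strand, 5 exons) was at 79.4, 75.6 and 53.2 CPM in attached and 0.288, 0.667 and 1.24 CPM in aerial mycelium (−6.52 ± 0.54 log2, SE, edgeR adjusted p = 5.2e-12). The set of young mycelium, higher at 12 h than at 132 h of growth, leaned the other way, with 22 of 76 members higher and 8 lower at a median of 0.56. Its leading member, besides CopciAB_450946.T0, was CopciAB_1001777.T0, at 27.996, 28.2 and 116 CPM in aerial and 2.73, 1.47 and 11.4 CPM in attached mycelium. Library 3 was the highest in both compartments, and with the 6 dark libraries fitted alone this gene was not called (edgeR adjusted p = 0.0539). Without attached library 3 the young set had 18 members higher and 3 lower.

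In sets of 3 stresses that alter gas or water supply, more members were called lower than higher in aerial mycelium. Of genes higher in sealed plates, the carbon dioxide treatment, 57 of 100 were lower and 4 higher, at a median of −1.94. Its members took 1.29, 1.33 and 2.78% of attached and 0.62, 0.36 and 0.48% of aerial scaled counts, so attached library 3 was the highest. CopciAB_541226.T0 of this set was at 53.3, 32.5 and 26.9 CPM in attached and 0.192, 0.333 and 0.0828 CPM in aerial mycelium (−7.44 ± 0.68 log2, SE, edgeR adjusted p = 1.67e-10), and CopciAB_559348.T0 was at 2623 ± 1566 and 34.5 ± 32.5 CPM (SD, n = 3). Without library 3 of both compartments the carbon dioxide set had 34 members lower and 3 higher, at −1.58. Of the osmotic set, higher in sorbitol, 46 of 96 were lower and 7 higher, at −1.51, and 34 and 4 without library 3. Of the drought set, 44 of 100 were lower and 8 higher, at −1.13. The drought and carbon dioxide sets shared 15 genes, so their counts are not independent. Sets also shared control groups. The carbon dioxide and sclerotium sets were defined against mycelium of 132 h, which also defined the ageing and young sets. The osmotic and peroxide sets shared a liquid control, and the drought and wounding sets a control of younger dark mycelium. CopciAB_419688.T0 of the drought set was at 819.7, 780.5 and 473 CPM in attached and 4.51, 7.25 and 10.1 CPM in aerial mycelium. The other leading drought gene, CopciAB_440563.T0, was at 82.2, 66.6 and 761 CPM in attached and 1.53, 8.92 and 8.78 CPM in aerial mycelium, and its log2 difference of −5.55 ± 1.13 (SE) became −3.55 without attached library 3. The higher drought members numbered 4 or 5 without aerial library 1 or 2 or attached library 2 or 3. The hypoxia set held only 13 genes, of which 6 were lower and 0 higher, and without aerial library 1 or 2 or attached library 3 there were 3, 3 and 1 lower.

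The sets of 2 other stresses contained more higher than lower genes, at medians near 0. Of the peroxide set 27 of 93 were higher and 12 lower, at a median of −0.04, and of the wounding set, from mycelium cut with a knife, 20 of 100 were higher and 10 lower, at 0.18. Without library 3 of both compartments 13 wounding members were higher. The peroxide set shared 11 genes with the osmotic set. CopciAB_393477.T0 (scaffold 13, bases 794785 to 797286, minus strand, 13 exons) of the peroxide set was at 66.1, 45.3 and 50.6 CPM in aerial and 2.73, 1.73 and 1.15 CPM in attached mycelium (4.85 ± 0.58 log2, SE, edgeR adjusted p = 2.81e-08). It lies next to CopciAB_476986.T0, another of the 8 genes with the largest increase. CopciAB_367244.T0 of the wounding set was at 59.2, 61.5 and 98.3 CPM in aerial and 4.28, 6.57 and 7.94 CPM in attached mycelium (3.54 ± 0.34 log2, SE, edgeR adjusted p = 1.85e-10), and CopciAB_471069.T0 at 58.1 ± 19.4 and 6.26 ± 1.64 CPM (aerial and attached, SD, n = 3).

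Sets of other structures that mycelium can carry were followed next. The oidium and basidiospore sets hold genes higher in ungerminated spores than in their germlings. They were not chosen against mycelium, so a member need not mark spores within it. Of the oidium set, 10 of 70 tested members were higher and 8 lower, at a median of 0.04. Its tested members took 0.10 to 0.12% of aerial and 0.04 to 0.06% of attached scaled counts. Of all 100 members, tested or not, 7 were at 0 in aerial and 11 at 0 in attached mycelium. Without library 3 of both compartments 6 oidium members were higher and 6 lower, and without aerial library 2 alone 5 were lower. CopciAB_446192.T0, a member of the oidium set, was at 20.04, 26.5 and 48.1 CPM in aerial and 1.75, 0.433 and 1.15 CPM in attached mycelium (4.83 ± 0.90 log2, SE, edgeR adjusted p = 8.92e-05). With CPM scaled over all 201 libraries, its mean was 19.6 CPM in ungerminated oidia, below the 28.98 CPM of dark aerial mycelium and the 386 CPM of aerial mycelium 12 h after light. Of the basidiospore set, 7 of 69 were higher and 12 lower, at −0.02, with 0.05 to 0.13% of aerial and 0.28 to 0.48% of attached scaled counts. The basidiospore counts depended on single libraries. Leaving out 1 library gave 2 to 4 higher members for each of aerial libraries 1 and 3 and attached libraries 1, 2 and 3, and 7 lower members without aerial library 1. CopciAB_1001696.T0 of this set was at 53.9 ± 12.3 CPM in attached and 3.69 ± 0.272 CPM in aerial mycelium (SD, n = 3).

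The sclerotium set, from a sample whose label allows for some mycelium in it, had members in both directions, with 19 of 92 higher and 32 lower at a median of −0.89. Its 2 leading genes were those with no aerial count, CopciAB_448984.T0 and CopciAB_1001455.T0, and without library 3 of both compartments 14 members were higher and 21 lower. The sclerotium set shared 30 genes with the osmotic set and 13 with the carbon dioxide set. The set of hyphal knots, defined against aerial and attached mycelium 24 h after light, had 51 of 100 lower and 1 higher, at −1.57. The knot set took 0.10 to 0.15% of aerial and 0.71 to 0.75% of attached scaled counts. Without library 3 of both compartments 36 knot members were lower and 0 higher. The knot set shared 11 genes with the set of genes lost in starvation and 10 with the primordium set. CopciAB_439278.T0, a member of the knot set, was at 40.4, 32.01 and 135 CPM in attached and 0.288, 0.583 and 0.580 CPM in aerial mycelium (−7.10 ± 0.71 log2, SE, edgeR adjusted p = 1.58e-09). On the scale of all 201 libraries its mean was 22.9 CPM in knots, below the 64.4 CPM of dark attached mycelium. CopciAB_1001308.T0 was at 8.82 ± 3.42 and 0.0872 ± 0.0832 CPM (SD, n = 3). The primordium set, higher in cultures kept for 24 h in light and dark cycles than in knots, had 16 of 95 higher and 4 lower, at −0.05, with CopciAB_355212.T0 and CopciAB_389968.T0 at log2 differences of 2.99 ± 0.47 and 2.96 ± 0.45 (SE). Without attached library 3 its higher members fell to 8, and without aerial library 1 its lower members to 2. The part of spores, sclerotia or knots in the differences between compartments was not tested.

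In 2 sets taken from the light course, more members were called lower than higher in aerial mycelium before any light was given. Under 50% of either set were called lower. Both light sets hold genes higher at the end of the 2 h pulse than 18 h after it. Neither was defined against darkness, so their members need not be induced by light. The aerial light set had 33 of 68 lower and 8 higher at 156 h in darkness, at a median of −1.39. The matching set from attached mycelium had 34 of 100 lower and 11 higher, at −0.71, and the 2 light sets shared 27 genes. The aerial light set shared 12 genes with the set of genes lost in starvation. CopciAB_447136.T0 of the attached light set was at 171, 187 and 268 CPM in attached and 1.05, 3.67 and 3.81 CPM in aerial mycelium (−6.17 ± 0.64 log2, SE, edgeR adjusted p = 2.76e-09). CopciAB_541708.T0 of the same set rested on 1 library, at 1.95, 2.94 and 82.6 CPM in attached and 0.0959, 0.250 and 0.249 CPM in aerial mycelium. Its log2 difference of −7.08 ± 1.30 (SE) became −3.55 without attached library 3, and it was not called without library 3 of both compartments (edgeR adjusted p = 0.0588), nor with the 6 dark libraries fitted alone (edgeR adjusted p = 0.0743). The attached light set took 2.02 to 2.15% of attached and 2.09 to 2.74% of aerial scaled counts, which overlapped on this scale. The TMM factors were 0.88 to 0.93 in attached and 0.96 to 1.00 in aerial libraries, so shares of raw counts need not overlap. The higher members of the attached light set numbered 6 or 7 without aerial library 3 or attached library 1 or 2, and those of the aerial light set 5 without aerial library 3.

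**Figure D3:**
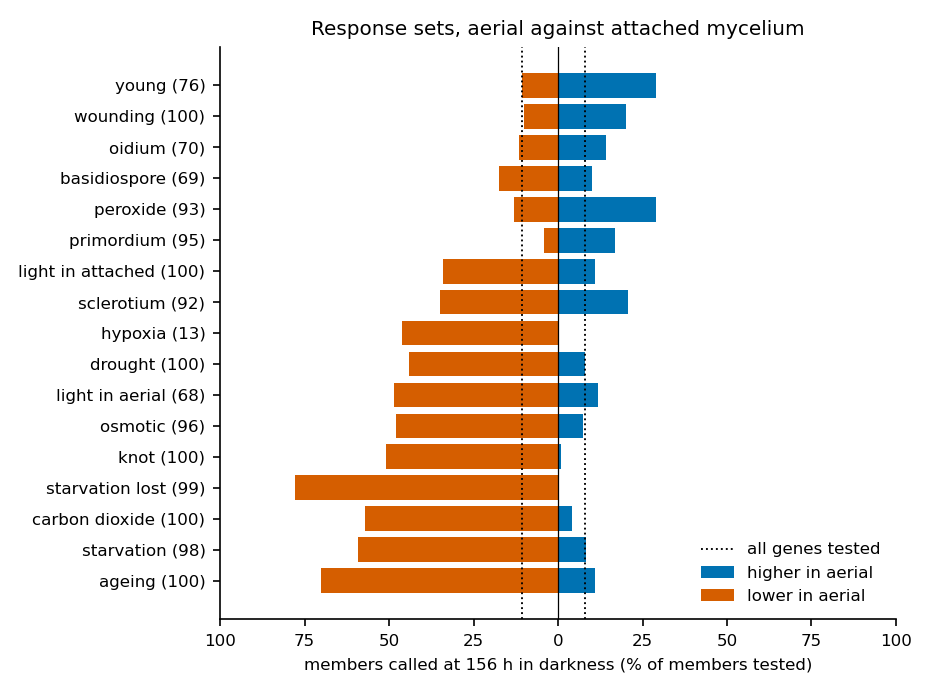
Percent of tested members of each response set called higher (blue, to the right) or lower (orange, to the left) in aerial mycelium after 156 h in darkness, with the number tested in parentheses and dotted lines at the shares of all genes tested (7.96% and 10.6%). The ageing, starvation, starvation-lost, carbon dioxide and knot sets reach 51% or more to the left, and the young and peroxide sets reach 29% to the right.

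The differences of darkness were then followed through the light course, in libraries that shared none with the dark comparison. The median of the starvation set had the opposite sign after 1 h of light. It went from −2.92 in darkness to 0.42 after 1 h of light, with 21 members higher and 5 lower there, stayed between −0.26 and 0.53 until 12 h after light, and was −1.61 at 18 h and −4.63 at 24 h, with 82 members lower at 24 h. The ageing set went from −2.97 to −0.03 after 1 h of light and to −2.47 at 24 h. The drought set turned from −1.13 to 0.24 and the osmotic set went from −1.51 to −0.82 after 1 h and −0.16 after 2 h of light. The medians of 3 sets kept their sign. The carbon dioxide set stayed between −1.95 and −1.01 at all 7 later times, and the young set between 0.12 and 1.02. The set of genes lost in starvation stayed below 0 at each time and was nearest to it, at −0.03, at 24 h. The knot and light sets are not followed to those times whose libraries defined them, and no test was made of any change in a median.

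**Figure D4:**
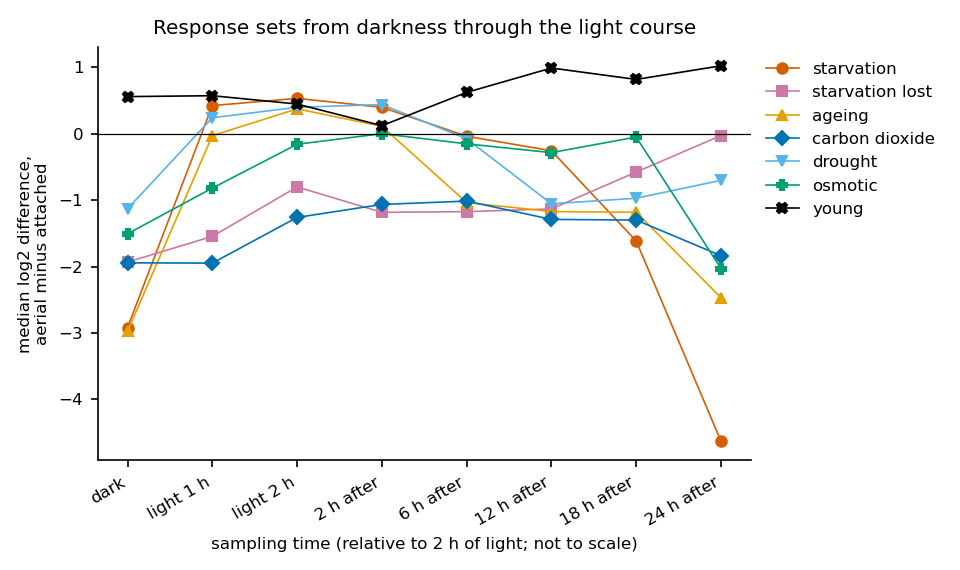
Median log2 difference between aerial and attached mycelium over the tested members of 7 response sets, at 156 h in darkness, at 1 h and 2 h of light and 2 to 24 h after light, with times evenly spaced and not to scale. The starvation and ageing lines start near −3, lie near 0 in the light and fall again by 24 h, and the carbon dioxide line stays below −1 throughout.

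Gene by gene, the compartment difference was most often seen again soonest and latest. Of the 920 genes higher in darkness, 490 were called higher again after 1 h of light, 379 after 2 h, and 370, 369, 336, 305 and 503 at 2, 6, 12, 18 and 24 h after light. Among all genes tested, 7.84, 6.6, 6.09, 4.91, 5.04, 5.32 and 11.4% were called higher at these times. At most 6 of the 920 were called in the opposite direction at any of them. Of the 1224 lower genes, 505, 317, 297, 403, 469, 454 and 732 were called lower again at the same 7 times. Among all genes tested, 7.0, 4.88, 4.24, 4.52, 6.64, 6.41 and 10.8% were called lower. Between 7 and 52 of them were called in the opposite direction. Across all 8 times 111 genes were called higher and 78 lower at every one, 178 higher and 182 lower genes were called at none of the 7 later times, and 20 higher and 113 lower genes had the opposite call at 1 or more later times. A missing call at one time does not show that the difference changed. By a test of the change itself, the difference between the compartments in darkness differed from that at the 7 later times in 403, 653, 568, 321, 911, 1149 and 1135 genes. That was 3.49, 5.65, 4.91, 2.78, 7.88, 9.94 and 9.82% of those tested, and these 7 tests share the 6 dark libraries. Single dark libraries moved some of these counts. The count at 1 h of light was 231, 259, 251 and 268 without aerial library 1 or 2 or attached library 1 or 2. At 6 h it was 164 and 174 without aerial library 1 or 2, at 12 h 380 and 557 without aerial library 1 or attached library 2, and at 18 h 659 without aerial library 1.

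The 8 genes described next, 4 in each direction, were chosen for being called in the same direction at all 8 times, so that they did so is no finding. CopciAB_400893.T0 (scaffold 12, bases 164049 to 164900, minus strand, 3 exons) was at 489, 662 and 599 CPM in aerial and 26.97, 34.1 and 18.9 CPM in attached mycelium in darkness (4.45 ± 0.64 log2, SE, edgeR adjusted p = 1.48e-06), and its later log2 differences lay between 3.43 and 5.81. CopciAB_1001491.T0 (scaffold 7, bases 120322 to 120886, plus strand, 2 exons), a short gene with a coding length of 150 bp that also belonged to the oidium set, was at 391, 454 and 524 CPM in aerial and 23.6, 21.97 and 21.6 CPM in attached mycelium (4.35 ± 0.26 log2, SE, edgeR adjusted p = 4.79e-16), and later between 2.91 and 4.09. With CPM scaled over all 201 libraries, its mean was 23.6 CPM in ungerminated oidia, below the 418 CPM of dark aerial mycelium. CopciAB_462618.T0 and CopciAB_559313.T0 completed the 4, at 3.78 ± 0.63 and 3.11 ± 0.46 log2 in darkness (SE).

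In the opposite direction CopciAB_26022.T0 (scaffold 5, bases 46095 to 48738, plus strand, 12 exons) was at 6.90, 6.67 and 6.63 CPM in aerial and 322, 308 and 402 CPM in attached mycelium (−5.67 ± 0.58 log2, SE, edgeR adjusted p = 2.54e-09), with later differences between −3.22 and −4.63. CopciAB_376182.T0 (scaffold 8, bases 29362 to 30194, minus strand, 4 exons) was at 0.479, 1.17 and 0.497 CPM in aerial and 22.4, 16.004 and 20.0004 CPM in attached mycelium (−4.73 ± 0.58 log2, SE, edgeR adjusted p = 5.57e-08), with later differences between −3.11 and −6.77. The other 2 were CopciAB_446928.T0 and CopciAB_377714.T0, given above with the starvation-lost set, whose later differences lay between −3.12 and −6.87 and between −2.96 and −5.60.

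A few genes crossed over by 24 h after light. CopciAB_456849.T0 (scaffold 11, bases 2150050 to 2150853, minus strand, 4 exons) was at 17.5, 20.2 and 17.5 CPM in aerial and 10.3, 4.15 and 2.68 CPM in attached mycelium in darkness (1.69 ± 0.58 log2, SE, edgeR adjusted p = 0.025). At 24 h it was at 84.9, 98.5 and 43.3 CPM in aerial and 387, 279 and 474 CPM in attached mycelium (−2.33 ± 0.55 log2, SE, edgeR adjusted p = 0.00108). Every attached library at 24 h lay above every aerial one, the reverse of darkness. CopciAB_448166.T0 went from 1.62 ± 0.52 to −1.35 ± 0.51 and CopciAB_467341.T0 from 1.24 ± 0.48 to −1.63 ± 0.48 (log2, SE). The dark calls of these 3 genes were lost in several leave-one-out fits, CopciAB_467341.T0 without any 1 of the 6 libraries, CopciAB_456849.T0 without aerial library 1 or 2 or attached library 2 or 3, and CopciAB_448166.T0 without aerial library 1 or attached library 1 or 2.

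Crossing in the other direction was larger. CopciAB_482370.T0 (scaffold 3, bases 336659 to 337323, plus strand, 3 exons) was at 0.863, 0.167 and 2.15 CPM in aerial and 38.5, 10.5 and 3.35 CPM in attached mycelium in darkness (−4.01 ± 1.36 log2, SE, edgeR adjusted p = 0.0242). At 24 h after light it was at 382, 866 and 31.4 CPM in aerial and 5.85, 21.2 and 6.23 CPM in attached mycelium (5.26 ± 1.27 log2, SE, edgeR adjusted p = 0.00146). In between, 18 h after light, both compartments were high, at 3275, 1748 and 2594 CPM in aerial and 2564, 3079 and 489.9 CPM in attached mycelium, and its highest mean in the study was in cultures 12 h into light and dark cycles. CopciAB_354674.T0 was at 5.37, 10.3 and 33.8 CPM in aerial and 39.5, 34.3 and 277 CPM in attached mycelium in darkness and at 350.2, 775 and 78.7 CPM in aerial and 15.4, 24.6 and 12.3 CPM in attached mycelium at 24 h. Its dark difference of −2.82 ± 0.96 log2 (SE) became −1.18 without attached library 3 and was then not called, nor was it without aerial library 1 or 2. That of CopciAB_482370.T0 was not called without aerial library 1 or 2 or attached library 1. With the 6 dark libraries fitted alone neither was called (edgeR adjusted p = 0.136 for CopciAB_354674.T0 and 0.0530 for CopciAB_482370.T0). The third gene, CopciAB_544254.T0, was at 7.40, 5.97 and 3.92 CPM in attached and 0, 0.417 and 0.331 CPM in aerial mycelium in darkness and had no attached count at 24 h, where aerial mycelium was at 0.0893, 0.744 and 0.187 CPM.

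Genes called in the same direction also stood side by side. The longest run of consecutive tested genes called higher in aerial mycelium held 7 genes over 14.1 kb of scaffold 6 (bases 69859 to 83994). Its members were CopciAB_432038.T0, CopciAB_454731.T0, CopciAB_377030.T0, CopciAB_465939.T0, CopciAB_442185.T0, CopciAB_465938.T0 and CopciAB_501345.T0, on both strands. CopciAB_465939.T0 showed the largest difference of the 7, at 16.97, 29.01 and 14.1 CPM in aerial and 1.75, 3.37 and 1.82 CPM in attached mycelium (3.10 ± 0.52 log2, SE, edgeR adjusted p = 1.47e-05). The most abundant was CopciAB_432038.T0, at 123, 119 and 196 CPM in aerial and 73.6, 63.8 and 39.04 CPM in attached mycelium (1.31 ± 0.31 log2, SE, edgeR adjusted p = 0.0012), and the other 5 lay between 1.45 and 1.92 log2. The calls of the last 2 members rested on single libraries. CopciAB_465938.T0 was not called without attached library 1 or 3, and CopciAB_501345.T0 not without aerial library 1 or attached library 2 or 3, and CopciAB_432038.T0 was at 0.78 log2 and not called without library 3 of both compartments.

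Among lower genes the longest runs held 6 genes. One covered 12.5 kb of scaffold 10 (bases 1812899 to 1825400). CopciAB_446966.T0 in it was at 8.92, 9.17 and 9.03 CPM in aerial and 42.4, 36.4 and 44.8 CPM in attached mycelium (−2.19 ± 0.30 log2, SE, edgeR adjusted p = 3.56e-07), and CopciAB_364865.T0 at 0.0959, 0.750 and 0.497 CPM in aerial and 6.82, 7.09 and 15.6 CPM in attached mycelium (−4.38 ± 0.59 log2, SE, edgeR adjusted p = 2.33e-07). CopciAB_394943.T0 and CopciAB_477568.T0 differed by −1.09 ± 0.21 and −1.33 ± 0.25 log2 (SE). CopciAB_446967.T0 and CopciAB_364858.T0, at −2.06 ± 0.59 and −1.52 ± 0.51, became −1.17 and −0.78 without attached library 3 and were then not called, and the second was not called without aerial library 2 or 3 either.

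The other run of 6 covered 6.37 kb of scaffold 4 (bases 486613 to 492983) and held transcripts of low level, with attached means of 0.752 to 4.91 CPM. CopciAB_371602.T0 was at 0.0959, 0.417 and 0.0828 CPM in aerial and 2.24, 2.68 and 3.64 CPM in attached mycelium (−3.74 ± 0.78 log2, SE, edgeR adjusted p = 0.000279). CopciAB_437767.T0 and CopciAB_462464.T0 differed by −2.43 ± 0.56 and −3.38 ± 0.91 log2 (SE), and without library 3 of both compartments by −1.77 and −3.02, which was not called (edgeR adjusted p = 0.0562 and 0.0535). CopciAB_1000897.T0, CopciAB_23018.T0 and CopciAB_371591.T0, at −1.58 ± 0.49, −2.58 ± 0.98 and −2.89 ± 0.96 log2, each lost their call in 2 or more of the 6 leave-one-out fits. Those were the fits without aerial library 2 or attached library 3 for the first, without aerial library 1 or 3 or attached library 1 or 2 for the second, and without aerial library 1 or 2 or attached library 3 for the third. There were 98 runs of 2 or more genes called higher and 185 of 2 or more called lower, of which 77 and 147 were pairs. With 7.96% of all genes tested called higher and 10.6% lower, some runs arise without any clustering. The number to be had from the call rate alone was not computed, so these counts only describe.

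**Figure D5:**
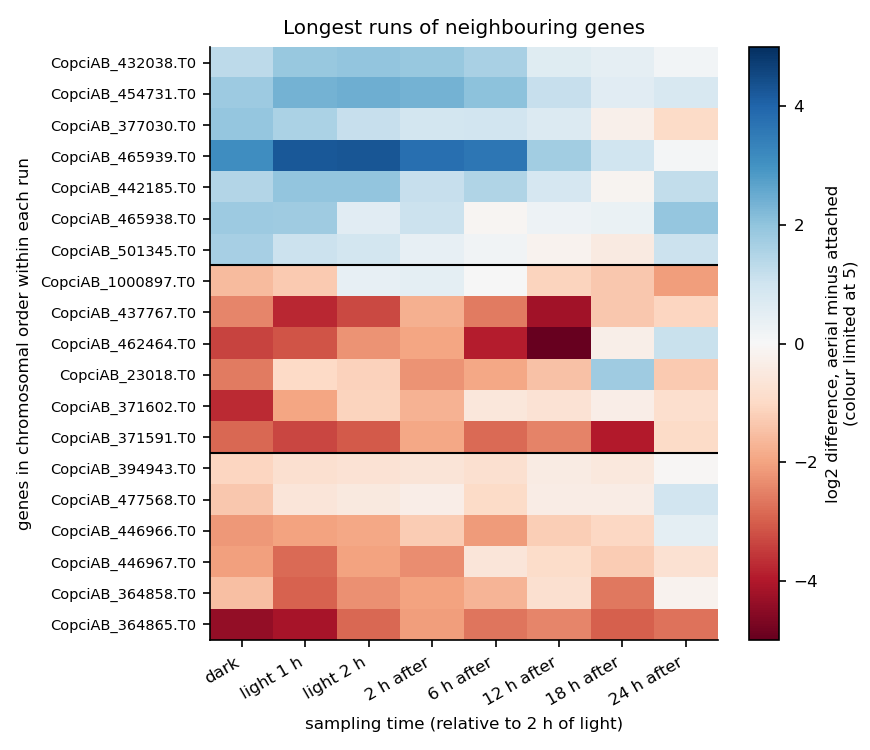
Log2 difference between aerial and attached mycelium at 8 times (columns) for each member of the 3 longest runs (rows, in chromosomal order, separated by black lines), with blue for higher and red for lower in aerial mycelium and colour limited at 5. The first column, darkness, is of 1 colour within each run because the runs were chosen there, and CopciAB_465939.T0 is the darkest blue of its run through 18 h after light.

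Runs of opposite direction met on scaffold 1. This stretch was picked after its values had been seen. The head-to-head pair CopciAB_501653.T0 and CopciAB_442792.T0, both far higher in aerial mycelium, adjoined a run of 5 lower genes, and the 7 genes together spanned 16.1 kb. CopciAB_482270.T0, in the run (scaffold 1, bases 3885937 to 3887346, plus strand, 4 exons), was at 5.46, 6.67 and 5.96 CPM in aerial and 144, 139 and 87.6 CPM in attached mycelium, a log2 difference of −4.35 ± 0.69 (SE, edgeR adjusted p = 8.52e-06). CopciAB_490975.T0, whose end overlaps that of CopciAB_501653.T0 on the other strand, was at 0.0959, 0 and 0.0828 CPM in aerial and 5.84, 4.50 and 3.16 CPM in attached mycelium (−5.99 ± 1.16 log2, SE, edgeR adjusted p = 0.000114). The strand setting of the counting is not given in the sources used here, so reads of these 2 overlapping genes may not be fully separated, although they differed in opposite directions. The remaining 3, CopciAB_406666.T0, CopciAB_501657.T0 and CopciAB_455126.T0, lay at −5.33 ± 0.78, −5.46 ± 0.80 and −2.64 ± 0.76 log2 (SE), the last pair overlapping each other on opposite strands. At 24 h after light all 7 were called in the same directions as in darkness.

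The levels of the called genes were also set beside mycelium grown for 132 h in the dark, which the labels do not divide into compartments. On the log2(CPM + 1) scale, with CPM scaled over all 201 libraries, the median level of the 920 higher genes was 3.48 at 132 h, 3.34 in attached and 4.92 in aerial mycelium. For the 1224 lower genes it was 3.97 at 132 h, 4.26 in attached and 2.19 in aerial mycelium. Mycelium of 132 h was nearer to the attached level for 810 of the 920 higher and 1043 of the 1224 lower genes, and for 7997 of all 11559 genes tested. The median of the 920 higher genes was 3.10 in mycelium of 60 h and 4.04 after 24 h on water agar. It was 3.48 and 3.67 for the 1224 lower genes, and 3.94 and 4.07 for all genes tested. Nearness of single libraries was looked at only among the 16 groups of aerial and attached mycelium. There the nearest other group to every aerial library was aerial mycelium 24 h after light, at r = 0.956 to 0.960 across genes. To every attached library it was attached mycelium 6 h after light, at r = 0.925 to 0.930. Dark aerial mycelium held the highest mean of all 67 groups for 95 of the 920 higher genes, more than any other group, followed by ungerminated oidia with 83 and ungerminated basidiospores with 71. These were 10.3, 9.02 and 7.72% of the higher genes. Among all genes tested the same 3 groups held the highest mean for 1.94, 10.3 and 14.6%. Since the 920 genes were called for being high in aerial mycelium, these counts are a description and test nothing.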

How the data were processed

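RNA was made into QuantSeq 3′ mRNA libraries, primed at the poly(A) tail, and read as single ends of 75 bp, per the labels' protocols. The authors deposited expected counts per gene, not normalized, and, per the submitters' processing notes, used STAR 2.6.1a and featureCounts. Its strand setting and treatment of multiple hits were not given in the sources used here. In the 6 libraries 18.8% of nonzero counts were not whole numbers (tolerance 0), so close gene copies may share reads, and 3487 genes overlap another on the other strand. Counts were rounded to whole numbers. They are 3′ counts, so CPM is not divided by transcript length.

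The 48 libraries of aerial and attached mycelium (16 groups) were fitted together with edgeR 4.0.16 in R 4.3.3, with TMM factors, genes filtered by filterByExpr (minimum count 10), 1 mean per group and its quasi-likelihood test in robust form. Calls needed a Benjamini-Hochberg adjusted p under 0.05 over all 11559 genes tested and a fold of 2 or more, and 2058 genes were not tested. CPM used TMM library sizes. A gene at 0 in a compartment was given a lower bound of its fold from 3 counts over the group, which covers counting error only. Alternatives were RLE factors, DESeq2 1.42.0, no filter, no fold threshold, the 6 libraries alone, with and without the replicate number as a block, and leaving out each library. Leaving out library 3 of both compartments and the shallow library 12 h after light were added after seeing the data.

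Each of 17 response sets came from a fit of 2 groups outside the 6 libraries (adjusted p under 0.05, log2 of 2 or more, 5 CPM or more, largest 100). Named genes were those with the largest differences (8 each way), the most abundant (4 called each way and 5 in all), the longest runs, the largest crossings at 24 h (3 each way), the firmest at 8 times (4 each way), the 2 leading members of each set with 10 or more calls, and genes at 0 in 1 compartment. They had to be at 5 CPM or more, free of same-strand overlap and whole in most libraries, members of runs excepted. The members and lists were chosen with earlier results of these data known. In simulated data for the dark comparison, recovery was 24% at a fold of 2, 96% at a fold of 4 and 100% at folds of 8 and 16, among 11182 genes, with 5 false calls. All groups were simulated from the attached means, and changed genes were drawn from those at about 2 CPM or more. No pair of the 6 libraries agreed within sampling noise (lowest chi-square per degree of freedom 10.46), so each counted as 1 replicate. No sequence is shown, since no genome of this annotation was used here.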

Additional observations from a re-analysis of the deposited data

Results flagged for a closer look

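The difference between aerial and attached mycelium changed from darkness to each later time in some genes, by the interaction term of the edgeR fit. The numbers were 403 genes at 1 h and 653 at 2 h of light, and 568, 321, 911, 1149 and 1135 genes at 2, 6, 12, 18 and 24 h after light.

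Of the genes named in the text, 18 changed between darkness and 24 h after light. Genes higher in aerial mycelium in darkness that moved down were CopciAB_501653.T0 by −1.83, CopciAB_501042.T0 by −2.08, CopciAB_377030.T0 by −2.88, CopciAB_465939.T0 by −2.99, CopciAB_456849.T0 by −4.02, CopciAB_467341.T0 by −2.87 and CopciAB_448166.T0 by −2.97 (log2). CopciAB_367244.T0, also higher in darkness, moved up by 1.63. Genes lower in darkness that moved up were CopciAB_445635.T0 by 3.79, CopciAB_394943.T0 by 1.04, CopciAB_477568.T0 by 2.30, CopciAB_446966.T0 by 2.68, CopciAB_439278.T0 by 5.41, CopciAB_1001308.T0 by 6.39 and CopciAB_447136.T0 by 4.37. The largest such changes were those of CopciAB_482370.T0 at 9.27, CopciAB_544254.T0 at 9.24, fitted with no attached count at 24 h and so no measured fold, and CopciAB_354674.T0 at 7.35.

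CopciAB_445635.T0 shows the pattern in an abundant transcript. Its CPM in attached mycelium were 8237, 7305 and 6172 in darkness, 3746, 4476 and 3854 after 1 h of light and 545, 586 and 611 at 24 h after it, while aerial mycelium was at 741, 933 and 2029 in darkness and 882, 1002 and 2227 at 24 h. CopciAB_465939.T0 was at 20.8, 17.05 and 7.03 CPM in aerial mycelium at 24 h, when attached mycelium was at 23.7, 11.3 and 6.78 CPM.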

How the results depend on the processing

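The 920 higher and 1224 lower genes became 891 and 1252 with RLE factors, 916 and 1275 with DESeq2, 912 and 1204 without a filter, 926 and 1239 with the 6 libraries alone, and 738 and 1083 without library 3 of both compartments. Without a fold threshold they were 1686 and 1759. Leaving out 1 library gave 743 to 897 higher and 971 to 1302 lower genes, and of the 2144 calls 78.6 to 89.7% were shared, 0 of them in the opposite direction. The interaction counts ranged, without 1 library, from 231 to 422 (1 h of light), 482 to 680 (2 h of light), and 399 to 587, 164 to 304, 380 to 1002, 659 to 1195 and 778 to 1069 (2, 6, 12, 18 and 24 h after light). The low end at every one of these times came without aerial library 1, equalled at 2 h of light without aerial library 2, and the cause was not tested.

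Replicate numbers did not pair the samples by the limit set here, since same-numbered libraries of the 2 compartments deviated together at r = 0.0996, 0.217 and 0.255 and each had to pass 0.1. Each library did correlate best with its own number, a hint from the data. With the replicate number as a block in the 6 libraries there were 968 higher and 1271 lower genes, and of the named genes CopciAB_357193.T0, CopciAB_440563.T0 and CopciAB_482370.T0 were not called (log2 0.97, −4.999 and −3.63; edgeR adjusted p = 0.000366, 0.0578 and 0.129).

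Of 76 named genes 74 were called, 20 lost their call under at least 1 alternative, and 0 changed direction. The simulated recovery of 24% for 2-fold changes limits what a missing call says. Since a call needs an estimated fold of 2 or more, part of that loss lies in the rule and not in depth or library number.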

Other observations

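Transcripts lower in aerial mycelium came from shorter genes. Their median coding length was 942 bp with 4 exons, against 1167 bp and 5 exons for all genes tested and 1283 bp and 5 exons for those higher in aerial mycelium. A coding length under 600 bp was found for 28.7% of lower, 16.96% of higher and 20.9% of all genes tested. Among genes that differed by 16-fold or more the share was 39.1% of 207 lower and 44.4% of 27 higher genes. CopciAB_438797.T0, CopciAB_450739.T0 and CopciAB_448984.T0 among the lower genes have coding lengths of 624, 360 and 426 bp, and CopciAB_468111.T0, the most abundant of the higher ones, 330 bp. No test of length was made.

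The share of genes called varied by scaffold. Among the 13 scaffolds with more than 200 tested genes, those called lower ranged from 7.26% of 1253 genes on scaffold 5 to 15.2% of 652 on scaffold 10, and those called higher from 5.95% of 1547 on scaffold 1 to 12.5% of 560 on scaffold 12. CopciAB_448984.T0, without an aerial count in darkness, was at 0.207, 0.384 and 0.296 CPM in attached mycelium after 1 h of light and at 1241, 803 and 384 CPM 24 h after light, when aerial mycelium was at 0.0893, 2.75 and 0.750 CPM. CopciAB_450739.T0 followed the same course in attached mycelium, from 6818, 6532 and 11675 CPM in darkness to 223, 108 and 283 after 1 h of light and 20442, 20321 and 19068 at 24 h.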
